A study of Homo sapiens with 12 samples.

Results

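The unfolded protein response and the integrated stress response were followed through 40 genes in A549, an established epithelial line from a human lung adenocarcinoma, often used as a stand-in for alveolar type II cells. The genes were chosen by symbol, and of a gene's probe sets that carry 1 gene symbol the one with the largest mean level over all arrays was used. All 40 were measured, among 18132 genes tested. The 12 Affymetrix PrimeView arrays fell into 4 groups of 3: untreated monolayers (control), monolayers heat shocked for 2 h, monolayers wounded for 4 h, and monolayers heat shocked and then wounded. All groups were grown in the same medium with serum, and the wounded ones carried multiple scratches. Each array received 100 ng of total RNA, so a level is relative to total RNA, and fewer responding cells cannot be told apart from less RNA per responding cell. The labels do not give the temperature, the time from heat shock to collection in monolayers that were not wounded, or whether replicate arrays stem from different cultures. All p-values therefore measure only the spread between these samples, which may be technical. With that time unknown, both treatments and heat shock alone may also differ in time since heat shock. Wounding cannot be told apart from it there, or in the test of whether the heat shock difference changed with wounding. Arrays of the same replicate number carry the same description code in all 4 groups. The codes of replicates 1 and 2 share a stem and that of replicate 3 has another, with no word on what the codes mean. Same-numbered arrays may therefore belong together, and a fit with the replicate number as a block was an alternative. If replicates 1 and 2 share a source, the standard errors and p-values with n = 3 may be too small, and an alternative therefore averaged them.

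The unfolded protein response is set off when unfolded protein builds up in the endoplasmic reticulum (ER), the compartment where secreted and membrane proteins fold. The membrane sensors ERN1 (IRE1 alpha), ATF6 and EIF2AK3 (PERK) start it. ERN1 splices the mRNA of the transcription factor XBP1, ATF6 is cut free to enter the nucleus, and both raise ER chaperones and the machinery that removes misfolded protein. EIF2AK3 phosphorylates the initiation factor eIF2 alpha, which lowers general translation and lets ATF4 be translated. Other kinases that sense amino acid shortage, double-stranded RNA or heme deficiency act on the same factor, and this shared branch is the integrated stress response. ATF4 drives genes for amino acid synthesis and uptake and feedback genes such as TRIB3 and PPP1R15A. Splicing, cleavage and translation were not measured here, and all values are mRNA levels.

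Epithelial markers were at log2 levels of 9.19 to 13.78 (6 genes, mean over 12 arrays). The 7 alveolar type II markers were at 2.32 to 7.48. The 11 leukocyte and endothelial markers had an upper quartile of 4.64 in control, which gives the height of a probe set with little or no transcript here. The highest of these 11 in control was CD14, at 5.84. The fibroblast markers LUM and DCN stayed between 2.08 and 2.96 on every array, PDGFRA between 3.40 and 3.95, and PDGFRB, above that quartile, between 4.96 and 5.27. One gene of that list, COL1A1, read 4.55 to 4.65 in control, 5.15 to 5.50 after heat shock, 4.80 to 5.07 after wounding and 5.38 to 6.09 after both. The summed level of the 6 fibroblast markers ranged from 22.13 to 23.22 over the groups and that of the 6 leukocyte markers from 24.20 to 24.38. COL1A1 passed after heat shock and after both (0.78 and 1.05, limma adjusted p = 0.00747 and 0.000465), and COL3A1 fell by 0.35 ± 0.11 after heat shock (SE, limma adjusted p = 0.0495). Among the other lists, the epithelial CDH1 fell by 0.26 and the alveolar type II marker ABCA3 fell by 0.27 after both. Their part in the results below was not tested. The treatments were visible in their usual reporters. The heat shock gene DNAJB1 was at 10.11 to 10.44 in control and 12.08 to 12.41 after heat shock, and the immediate early gene EGR1 was at 4.76 to 5.32 in control and 7.84 to 8.13 after wounding. EGR1 was also above control after heat shock alone, at 5.49 to 6.51. The array of heat shocked and wounded replicate 2 stood apart, with an interquartile range of 3.98 against 4.13 to 4.24 on the other 11 arrays.

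Heat shock alone changed 10 of the 40 genes at an adjusted p under 0.05 (limma, Benjamini-Hochberg over all genes), 8 higher and 2 lower. That is 25% of the members, where 12.9% of all genes passed (4.93% higher and 7.92% lower). The members and lists were chosen with earlier results of these data known. A share above that of all genes, here and below, is therefore a description and may partly reflect that choice. Wounding alone changed 0 of 40, where 3.57% of all genes passed (2.27% higher and 1.31% lower). At an unadjusted p under 0.05 there were 5 members (12.5%), near the 13.2% of all genes. The count of 0 was 3 with limma's mean-dependent robust setting (ATF4, PPP1R15A and SLC7A1) and 1 when only the groups compared were fitted (SESN2). Both treatments together changed 12 against control, 8 higher and 4 lower (30%, where 23.1% of all genes passed, 8.66% higher and 14.4% lower). Against wounding alone the doubly treated arrays differed in 8 members, 4 higher and 4 lower (20%, against 14.9% of all genes, 6.31% higher and 8.6% lower). Against heat shock alone they differed in 3, all lower (7.5%, against 4.3% of all genes, 2.71% higher and 1.58% lower). Without heat shocked and wounded replicate 2 these 3 counts were 12 (11 of them the same members), 11 and 1, and with the mean-dependent robust setting the last 2 of them were 14 and 7. With replicates 1 and 2 averaged, the 5 counts in the order given were 7, 0, 11, 6 and 1. The comparisons with control share the 3 control arrays. In all, 14 members passed in at least 1 of these 5 comparisons and 26 in none.

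The changes were small. No member moved by 2-fold or more in any comparison, and after heat shock the log2 changes of the 40 lay between -0.74 and 0.79 with a median of 0.10, where all genes had a median of -0.03. After wounding they lay between -0.23 and 0.44 (median -0.04, all genes -0.03), and after both between -0.93 and 0.88 (median 0.06, all genes -0.01). By role, the members that changed after heat shock were 0 of 12 in the ER chaperone arm, 2 of 5 in ER-associated degradation, 0 of 4 among sensors and XBP1, 5 of 10 among the factors and feedback genes of the integrated stress response, and 3 of 9 in the amino acid arm. Of all genes 12.9% passed in that comparison.

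**Figure D1:**
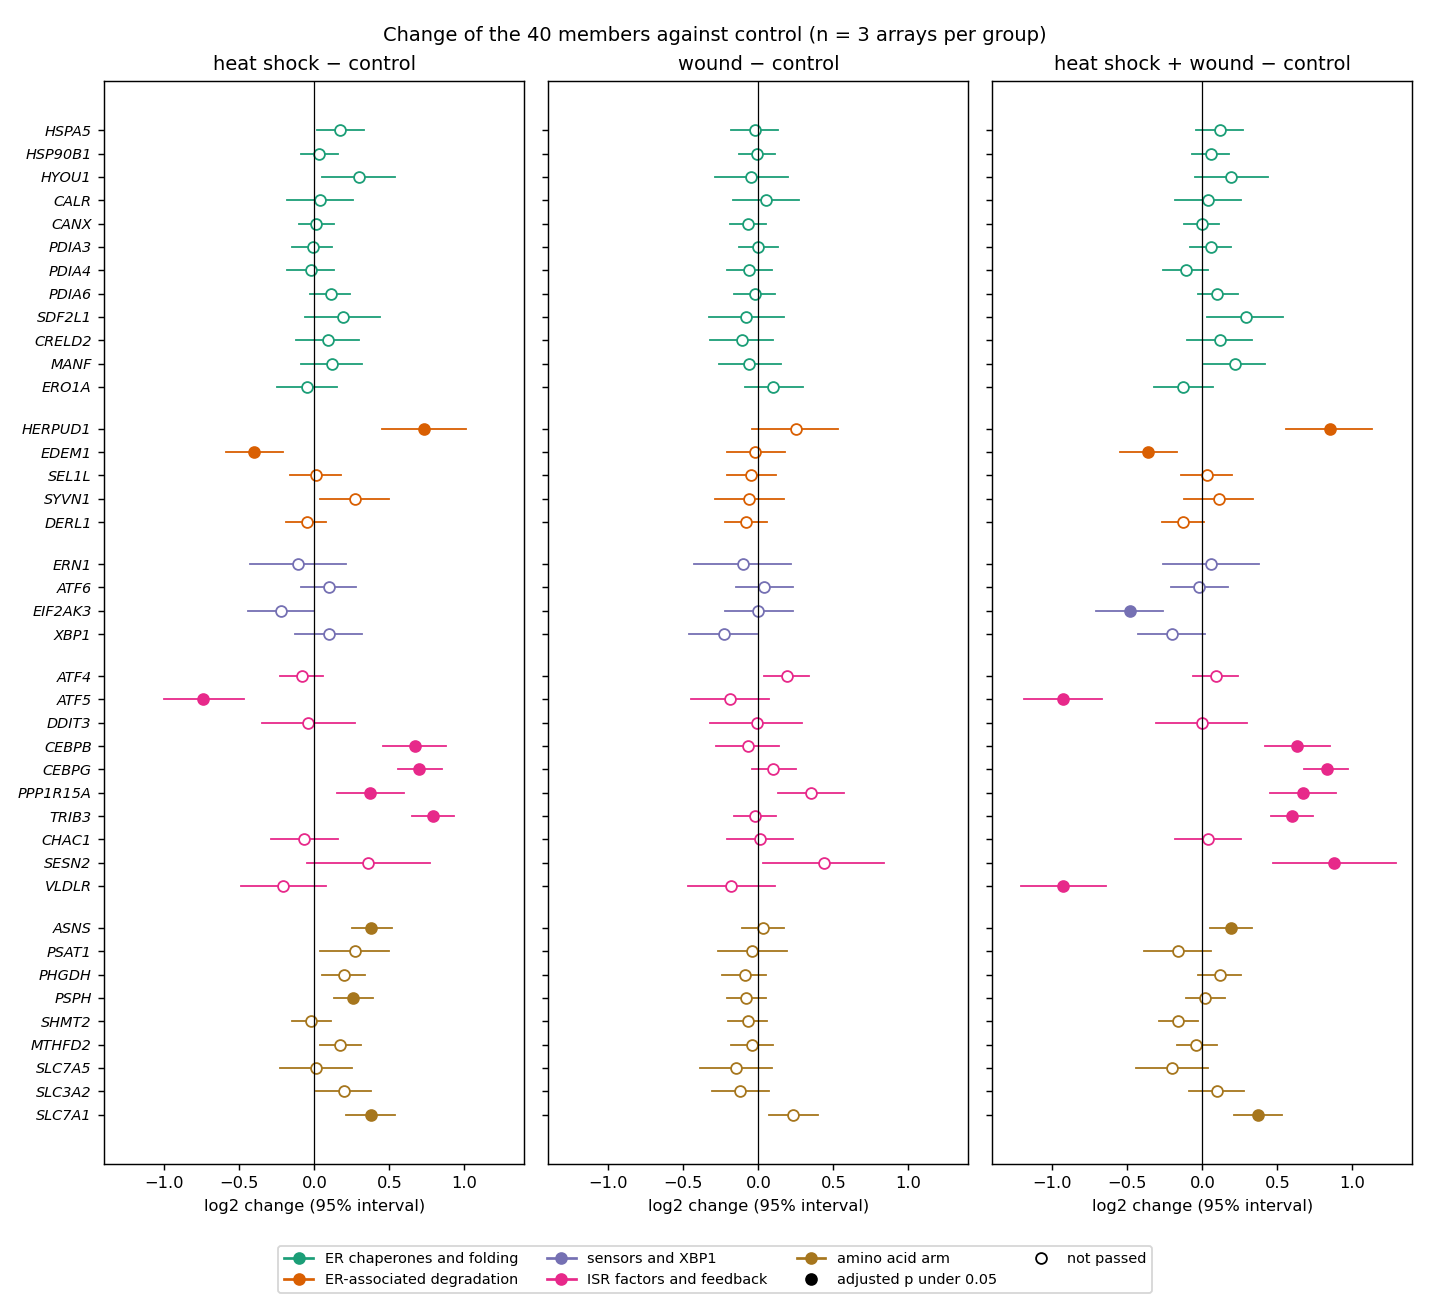
Log2 change of each of the 40 members against control, in 1 panel each for heat shock, wounding and their combination (n = 3 arrays per group), with its 95% interval from the limma fit; rows are genes grouped by role, filled dots passed an adjusted p under 0.05 and open dots did not. The ER chaperones at the top lie between -0.13 and 0.30 in all 3 panels with no filled dot, and the filled dots lie mostly among the factors and feedback genes.

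The promoters of both arms carry different short sequences, shown here because the arms are compared below. RefSeq promoters of assembly GRCh38.p14, from 250 bases before the start to 50 bases from it, matched 36 of the 40 members. PDIA3, DERL1, PSPH and SHMT2 had no entry. Each was searched on both strands for the ER stress response element ERSE (CCAAT, 9 bases of any kind, then CCACG), for the amino acid response element CARE (TGATGNAA) and for the core of the unfolded protein response element UPRE (TGACGTGG). The ERSE letters were in 6 of 11 genes of the ER chaperone arm (54.5%) and in XBP1, and in 25 of 27305 genes in RefSeq (0.0916%). These 7 members are among the 25. No ERSE match overlapped another motif. The matches are given in the direction of the motif, with the fixed letters in capitals:

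HSPA5: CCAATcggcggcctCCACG

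HSP90B1: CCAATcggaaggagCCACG

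HSP90B1, other match: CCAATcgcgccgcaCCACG

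CALR: CCAATgatggtcgaCCACG

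CANX: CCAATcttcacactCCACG

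PDIA6: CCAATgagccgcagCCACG

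CRELD2: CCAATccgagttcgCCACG

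XBP1: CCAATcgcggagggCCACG

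The match lay 66 to 48 bases before the start in HSPA5 and 52 to 34 bases before it in 1 of the 2 promoters of XBP1. The UPRE core was in HYOU1 alone among the members and in 0.927% of all genes. The CARE letters were in ASNS, SLC3A2 and SLC7A1 of the amino acid arm (3 of 7, 42.9%), in CEBPG and CHAC1, and in HERPUD1, where 1217 of 27305 genes hold them (4.46%). A match describes letters in a window and says nothing of binding in these cells. Other forms of these elements were not searched, so a gene without a match, such as HERPUD1 for ERSE, may still hold one. The upstream 250 bases of 3 members are shown, with the match in capitals, 5′ to 3′ on the gene's strand. These members hold CARE letters before the start and changed after heat shock. They are HERPUD1 at chr16:56931892-56932141 on the plus strand, CEBPG at chr19:33373863-33374112 on the plus strand, and ASNS at chr7:97872409-97872658 on the minus strand.

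HERPUD1: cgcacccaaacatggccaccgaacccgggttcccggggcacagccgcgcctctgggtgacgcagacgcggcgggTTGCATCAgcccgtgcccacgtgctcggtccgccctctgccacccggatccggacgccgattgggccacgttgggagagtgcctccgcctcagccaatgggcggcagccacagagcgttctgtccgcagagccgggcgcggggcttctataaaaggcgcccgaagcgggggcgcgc

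CEBPG: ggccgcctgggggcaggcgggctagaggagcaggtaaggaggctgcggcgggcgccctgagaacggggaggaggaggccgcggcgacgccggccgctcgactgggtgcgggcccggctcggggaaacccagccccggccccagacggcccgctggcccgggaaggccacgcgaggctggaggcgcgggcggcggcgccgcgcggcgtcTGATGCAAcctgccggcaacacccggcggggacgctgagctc

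ASNS: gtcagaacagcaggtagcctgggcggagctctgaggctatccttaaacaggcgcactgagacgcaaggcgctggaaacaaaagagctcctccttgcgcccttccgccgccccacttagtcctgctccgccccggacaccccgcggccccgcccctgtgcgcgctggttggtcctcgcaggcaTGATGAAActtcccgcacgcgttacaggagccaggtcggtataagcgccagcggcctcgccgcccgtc

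In HERPUD1 the match reads on the opposite strand, 176 to 169 bases before the start. In CEBPG it lies 42 to 35 bases before the start and in ASNS 68 to 61 bases before it. Both genes have 2 promoters, and only the 1 shown for each holds the match. ASNS carries TGATGAAA, and HERPUD1, CEBPG and CHAC1 carry TGATGCAA. SLC7A1 also changed after heat shock, but its match lies after the start (bases 8 to 15). That of SLC3A2 also lies after the start (bases 38 to 45), in 1 of its 3 promoters. TRIB3 and CEBPB rose without a CARE match, and CHAC1 holds one without passing. A link between match and change was not tested.

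The ER chaperone arm showed little movement. It holds the chaperones HSPA5 (BiP), HSP90B1, HYOU1, CALR and CANX, the disulfide enzymes PDIA3, PDIA4, PDIA6 and ERO1A, and the stress-induced lumenal proteins SDF2L1, CRELD2 and MANF. None of the 12 passed in any of the 6 tests, and in limma's unadjusted tests 2 had a p under 0.05 after heat shock (16.7%, all genes 25.3%), 0 after wounding (all genes 13.2%), 2 after both (16.7%, all genes 33.6%) and 4 for both against wounding (33.3%, all genes 28.1%). The arm's median change was 0.06 under heat shock, -0.04 under wounding and 0.08 under both. HSPA5, the master ER chaperone, read 12.57, 12.62 and 12.49 in control, 12.71, 12.74 and 12.75 after heat shock, 12.59, 12.57 and 12.46 after wounding, and 12.73, 12.54 and 12.77 after both. All 3 heat shocked arrays were above all 3 control arrays, while the doubly treated arrays overlapped control. The log2 difference after heat shock was 0.17 ± 0.07 (SE, 95% interval 0.02 to 0.33, limma adjusted p = 0.15).

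The result for HSPA5 depended on the probe set. It has 6, and after heat shock the others gave differences of 0.30, 0.42, 0.44, 0.44 and 0.47 where the one used gave 0.17. One of them, with a mean level of 7.70, passed in a fit over all probe sets (0.42, limma adjusted p = 0.0358) and passed again for both treatments against wounding (0.55, limma adjusted p = 0.0082). HYOU1, a chaperone of the HSP110 family in the ER, was at 8.25 ± 0.10 in control and 8.55 ± 0.25 after heat shock (SD, n = 3), and all heat shocked arrays were at or above the control arrays. Its difference was 0.30 ± 0.11 (SE, limma adjusted p = 0.114), and 1 dim probe set of 9, with a mean level of 4.76, passed at 0.58. With limma's mean-dependent robust setting, HSPA5 and HYOU1 were among 16 members that passed after heat shock (14 higher and 2 lower). The other members gained with it were PSAT1, PHGDH, MTHFD2 and SLC3A2 of the amino acid arm. For both treatments against wounding, SDF2L1 gave 0.37 ± 0.12 (SE, limma adjusted p = 0.0522), MANF 0.27 ± 0.10 (limma adjusted p = 0.0761) and CRELD2 0.23 ± 0.10 (limma adjusted p = 0.144), and for SDF2L1 and MANF the groups did not overlap. SDF2L1 passed there with each of the 3 other scalings, with the mean of all probe sets, with the filter on dim genes, with the robust setting and without heat shocked and wounded replicate 2. With 1 probe set, its own values were the same under the mean of all probe sets and the filter, where only the other genes differed. MANF passed with cyclic loess and the robust setting, and CRELD2 with the mean of all probe sets and without that array. A dim probe set of CRELD2, with a mean level of 3.55, passed at 0.54. The other 10 genes of the arm differed from control by -0.05 to 0.19 after heat shock. HSP90B1 had a 95% interval of -0.09 to 0.16. CALR was read at only 6.88 ± 0.10 in control through the higher of 2 probe sets.

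ER-associated degradation takes misfolded proteins out of the ER for destruction, and 2 of its 5 members changed, in opposite directions. After heat shock that was 40%, where 12.9% of all genes passed. HERPUD1, a membrane protein that organises the degradation complex, rose under heat shock with and without wounding. It read 9.21, 9.31 and 9.15 in control, 9.84, 9.87 and 10.15 after heat shock, 9.46, 9.56 and 9.40 after wounding, and 10.00, 9.81 and 10.40 after both. The heat shocked groups lay above the groups without heat shock with no overlap, and the wounded arrays lay between control and heat shock. The rise was 1.66-fold after heat shock (log2 0.73 ± 0.13 SE, limma adjusted p = 0.00308), 1.80-fold after both (0.85 ± 0.13, limma adjusted p = 0.000492), and 1.51-fold for both against wounding (0.60 ± 0.13, limma adjusted p = 0.00887). Wounding alone gave 0.25 ± 0.13, which did not pass (limma adjusted p = 0.466). Averaging all 4 probe sets of HERPUD1, 1 of which has a mean level of 2.62, left the rise against wounding at an adjusted p of 0.0546.

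EDEM1, which recognises glycoproteins for degradation, read 9.18, 9.34 and 9.21 in control, 8.89, 8.92 and 8.73 after heat shock, 9.30, 9.31 and 9.08 after wounding, and 8.88, 9.0 and 8.77 after both. The heat shocked groups were below the others on every array. It fell by 0.40 on the log2 scale after heat shock (limma adjusted p = 0.0104), by 0.36 after both (limma adjusted p = 0.00962) and by 0.35 for both against wounding (limma adjusted p = 0.0194). The fall came from 1 of 5 probe sets, the brightest; the others gave -0.16 to 0.10 after heat shock, and the mean of all 5 gave -0.07 with an adjusted p of 0.548. With replicates 1 and 2 averaged, the fall after heat shock had an adjusted p of 0.0612. The fall against wounding also lost its call when wounded replicate 1, wounded replicate 2, heat shocked and wounded replicate 1 or heat shocked and wounded replicate 3 was left out, with cyclic loess, when only the groups compared were fitted, and with replicates 1 and 2 averaged. The adaptor SEL1L, the ubiquitin ligase SYVN1 and the channel protein DERL1 did not pass. SYVN1, the partner of SEL1L, gave 0.27 ± 0.11 after heat shock (SE, limma adjusted p = 0.127).

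Among the sensors and XBP1, EIF2AK3 alone passed, and it fell where heat shock was followed by wounding. That was 25% for both treatments against control, near the 23.1% of all genes. EIF2AK3 read 8.54, 8.47 and 8.43 in control, 8.35, 8.34 and 8.10 after heat shock, 8.60, 8.53 and 8.33 after wounding, and 8.13, 7.80 and 8.06 after both. The doubly treated arrays were below every control and wounded array and overlapped the heat shocked ones. It fell by 0.48 on the log2 scale against control (0.715 of the control level, limma adjusted p = 0.00448) and by 0.49 against wounding (limma adjusted p = 0.00779). Heat shock alone gave -0.22 ± 0.10 (SE, limma adjusted p = 0.205), and the test of whether the heat shock difference changed with wounding gave -0.27 ± 0.15 (limma adjusted p = 0.76). With replicates 1 and 2 averaged, the fall against wounding had an adjusted p of 0.0601.

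XBP1, the factor spliced by ERN1, read 9.76, 9.88 and 9.60 in control, 9.85, 9.72 and 9.97 after heat shock, 9.55, 9.50 and 9.49 after wounding, and 9.57, 9.34 and 9.72 after both. The wounded arrays were all below control, by 0.23 ± 0.10 on the log2 scale (SE), without passing (limma adjusted p = 0.346). Its single probe set cannot separate spliced from unspliced mRNA by level alone. ATF6 read 7.14, 7.12 and 7.09 in control, 7.12, 7.27 and 7.24 after heat shock, 7.27, 7.24 and 6.97 after wounding, and 6.98, 7.18 and 7.14 after both, and the groups overlapped. ERN1 read 3.91, 3.90 and 3.88 in control, 3.72, 3.83 and 3.80 after heat shock, 3.47, 4.13 and 3.77 after wounding, and 4.23, 3.76 and 3.89 after both. These levels are under the 4.64 given above for probe sets with little or no transcript, so a change of ERN1 could not be read here.

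The factors and feedback genes of the integrated stress response moved in both directions. After heat shock CEBPB, CEBPG, PPP1R15A and TRIB3 rose and ATF5 fell (50%, all genes 12.9%). After both treatments SESN2 rose as well and VLDLR fell, which made 7 of 10 (70%, all genes 23.1%). ATF4, DDIT3 and CHAC1 passed in none of the comparisons in the main limma fit. The median over the 10 was 0.16 with heat shock, 0.00 with wounding and 0.35 with both.

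ATF4, the central factor of the response and mainly controlled at translation, read 11.77, 11.82 and 11.79 in control, 11.66, 11.69 and 11.78 after heat shock, 11.94, 11.93 and 12.08 after wounding, and 11.79, 11.90 and 11.96 after both. The wounded arrays were the highest group and the heat shocked ones the lowest. The difference was -0.08 ± 0.07 after heat shock (SE, 95% interval -0.23 to 0.06) and 0.19 ± 0.07 after wounding (95% interval 0.04 to 0.34, limma adjusted p = 0.215). With limma's mean-dependent robust setting ATF4 passed after wounding (limma adjusted p = 0.0255). It also passed there for both treatments against heat shock alone (0.17, limma adjusted p = 0.0383). DDIT3 (CHOP), a factor tied to cell death under lasting stress, read 5.92, 6.04 and 5.78 in control, 6.04, 6.07 and 5.50 after heat shock, 5.90, 5.87 and 5.92 after wounding, and 6.11, 5.89 and 5.72 after both. All groups overlapped, and its difference after heat shock had a 95% interval of -0.35 to 0.27. CHAC1, a glutathione-degrading enzyme and ATF4 target, read 5.81, 5.91 and 5.88 in control, 5.86, 5.56 and 5.98 after heat shock, 5.75, 5.99 and 5.90 after wounding, and 5.94, 5.97 and 5.81 after both, again with overlap of all groups. Its 95% interval after heat shock was -0.29 to 0.16, and its other probe set had a mean level of 3.91. In control DDIT3 and CHAC1 lay at 5.91 and 5.87, above the quartile of 4.64 but beside the leukocyte marker CD14 (5.84). Levels this low may hide a change, so the overlap does not show that DDIT3 and CHAC1 were unchanged.

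TRIB3, a pseudokinase that restrains ATF4 and DDIT3, showed the largest rise of the members after heat shock. It read 9.49, 9.53 and 9.48 in control, 10.27, 10.26 and 10.33 after heat shock, 9.47, 9.41 and 9.55 after wounding, and 10.20, 10.04 and 10.05 after both. Every heat shocked array was at least 10.04 and every other array at most 9.55. The rise was 1.72-fold after heat shock (log2 0.79 ± 0.06 SE, limma adjusted p = 1.2e-05) and 1.52-fold after both (0.60 ± 0.06, limma adjusted p = 3.14e-05). CEBPG, a bZIP partner of ATF4, read 9.80, 9.76 and 9.74 in control, 10.52, 10.51 and 10.38 after heat shock, 9.84, 9.88 and 9.88 after wounding, and 10.65, 10.66 and 10.48 after both. Its heat shocked arrays also stood clear of the rest, with a rise of 1.63-fold after heat shock (log2 0.70 ± 0.07 SE, limma adjusted p = 3.64e-05) and 1.78-fold after both (0.83 ± 0.07, limma adjusted p = 2.89e-06). The other probe set of CEBPG, with a mean level of 8.88, gave smaller rises of 0.39 after heat shock, 0.67 after both and 0.30 for both against wounding, and it also passed after wounding alone (0.37, limma adjusted p = 0.0415 in the fit over all probe sets). CEBPB, a related factor of inflammation and stress, read 10.25, 10.31 and 10.20 in control, 10.86, 10.93 and 10.99 after heat shock, 10.16, 10.36 and 10.05 after wounding, and 10.90, 11.06 and 10.71 after both. It rose 1.59-fold after heat shock (log2 0.67 ± 0.10 SE, limma adjusted p = 0.00086) and 1.55-fold after both (0.63 ± 0.10, limma adjusted p = 0.000498), with no overlap. All 3 genes also rose for both treatments against wounding, by 0.62, 0.73 and 0.70 in the order given.

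PPP1R15A (GADD34), the phosphatase subunit that reverses eIF2 alpha phosphorylation, and SESN2, a stress-induced inhibitor of mTORC1, were highest where the treatments were combined. PPP1R15A read 6.57, 6.92 and 6.91 in control, 7.21, 7.06 and 7.26 after heat shock, 7.08, 7.07 and 7.31 after wounding, and 7.46, 7.49 and 7.47 after both. Heat shock and wounding lay side by side above control, and both together above either. The rise was 1.30-fold after heat shock (log2 0.37 ± 0.10 SE, limma adjusted p = 0.0295) and 1.59-fold after both (0.67 ± 0.10, limma adjusted p = 0.000423); wounding gave 0.35 ± 0.10 (limma adjusted p = 0.10). The rise after heat shock lost its call without control replicate 1, heat shocked replicate 1 or heat shocked replicate 3, when only the groups compared were fitted, and with replicates 1 and 2 averaged (adjusted p 0.0123 to 0.119 over the alternatives). SESN2 read 6.03, 6.24 and 5.93 in control, 6.59, 6.78 and 5.90 after heat shock, 6.47, 6.44 and 6.59 after wounding, and 6.93, 7.17 and 6.72 after both. Heat shocked replicate 3 sat at the control level. Against control SESN2 rose 1.84-fold after both (log2 0.88 ± 0.19 SE, limma adjusted p = 0.00452), with 0.36 after heat shock and 0.44 after wounding, neither of which passed.

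ATF5 and VLDLR went the other way. ATF5, a bZIP factor of the same family as ATF4 that is also raised by translation under stress, read 8.25, 8.43 and 8.37 in control, 7.56, 7.50 and 7.79 after heat shock, 8.10, 8.05 and 8.32 after wounding, and 7.34, 7.24 and 7.69 after both. No heat shocked array reached the lowest array without heat shock. It fell to 0.601 of the control level after heat shock (limma adjusted p = 0.00174) and to 0.526 of it after both (limma adjusted p = 0.00013). VLDLR, a lipoprotein receptor and ATF4 target, read 8.38, 8.50 and 8.21 in control, 8.19, 8.07 and 8.22 after heat shock, 8.25, 8.20 and 8.11 after wounding, and 7.71, 7.08 and 7.53 after both. The single treatments overlapped control and the doubly treated arrays lay below all other arrays. VLDLR fell to 0.526 of the control level after both (log2 -0.93 ± 0.13 SE, limma adjusted p = 0.000278), to 0.595 of the wounded level (limma adjusted p = 0.00272) and to 0.607 of the heat shocked level (limma adjusted p = 0.00778). The lowest value came from the array that stood apart, and the fall against control was 0.75 to 1.06 in size over all alternatives, that array's removal among them.

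**Figure D2:**
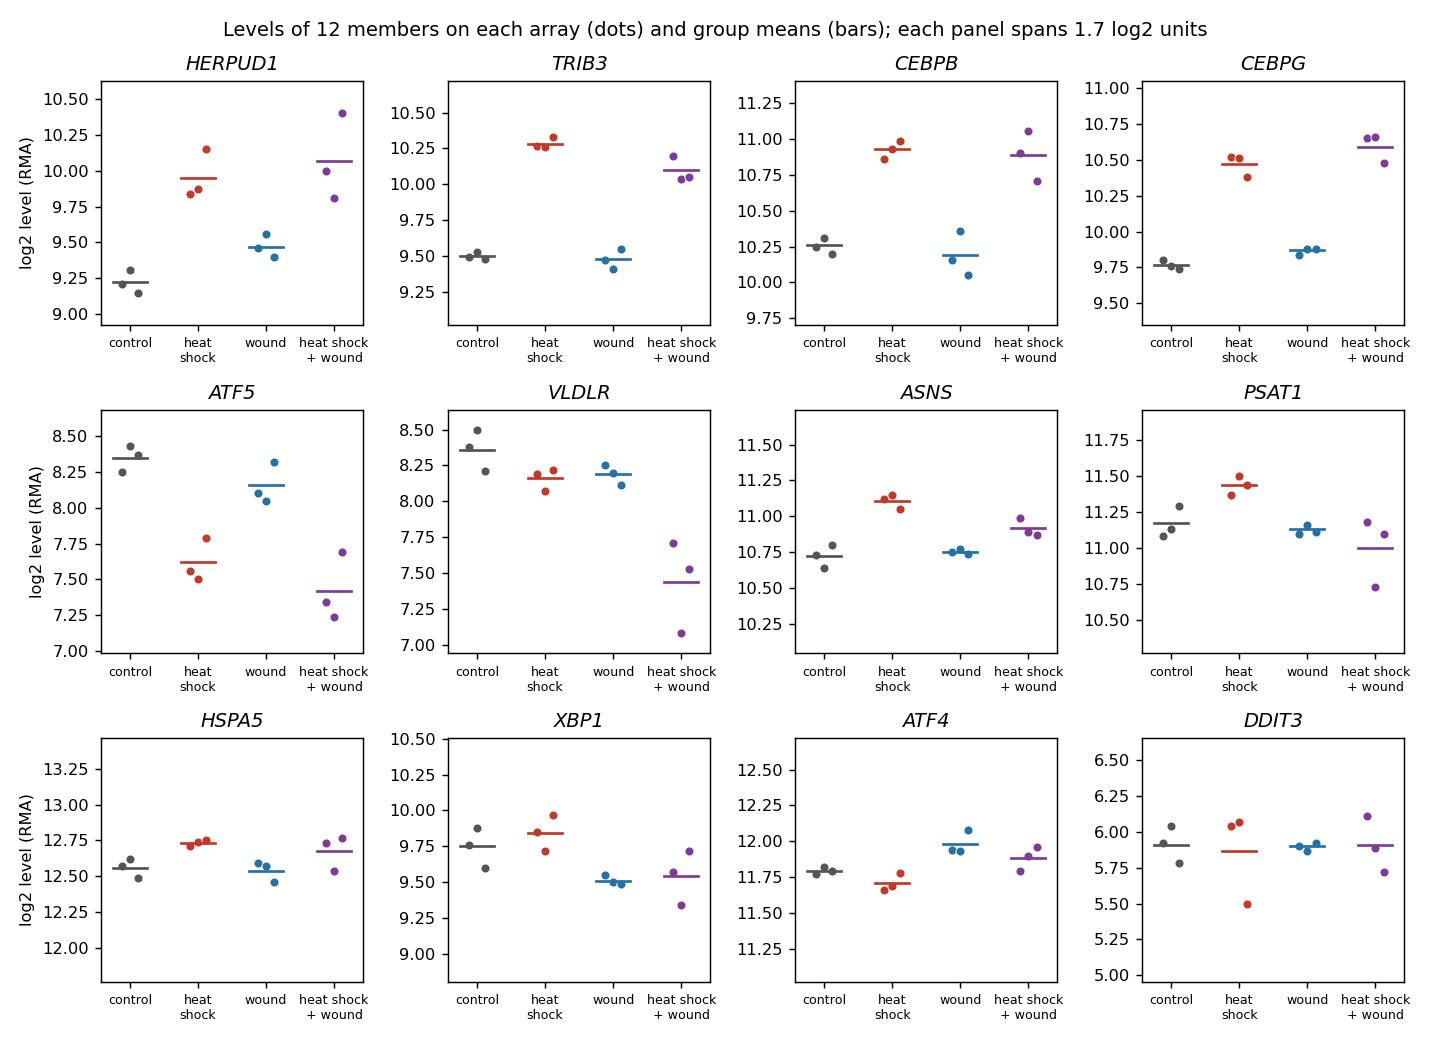
RMA log2 level of 12 members on each of the 12 arrays (dots, replicates 1 to 3 from left to right) with the group mean (bar); the horizontal axis gives the group, and every panel spans the same height on the log2 scale. HERPUD1, TRIB3, CEBPB and CEBPG are high and ATF5 is low in both heat shocked groups, VLDLR is low only where both treatments were given, and ATF4 and DDIT3 passed in none of the comparisons in the main limma fit.

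The amino acid arm rose in part after heat shock alone. It holds the asparagine synthetase ASNS, the serine synthesis enzymes PHGDH, PSAT1 and PSPH, the mitochondrial folate enzymes SHMT2 and MTHFD2, and the transporters SLC7A5, SLC3A2 and SLC7A1. ASNS, PSPH and SLC7A1 passed after heat shock (33.3%, all genes 12.9%) and 7 of 9 had an unadjusted p under 0.05 (77.8%, all genes 25.3%), with a median of 0.20. After both treatments ASNS and SLC7A1 passed against control (22.2%, all genes 23.1%) and the median was 0.02. Against wounding none of the 9 passed (3 at an unadjusted p under 0.05 in limma, or 33.3%, all genes 28.1%). PHGDH gave 0.21 ± 0.07 there (SE, limma adjusted p = 0.0561). It passed with each of the 3 other scalings, the mean of all probe sets, the filter on dim genes, the robust setting and a replicate block. PHGDH has 1 probe set, so the mean of all probe sets and the filter left its own values unchanged. Only the other genes in the fit and adjustment differed there. PHGDH also passed without wounded replicate 3 or heat shocked and wounded replicate 2. ASNS passed with the mean of all probe sets and the robust setting, and SLC3A2 with the robust setting and without wounded replicate 3. Against heat shock alone PSAT1 and PSPH were lower in the doubly treated arrays (22.2%, all genes 4.3%).

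ASNS read 10.73, 10.64 and 10.80 in control, 11.12, 11.15 and 11.05 after heat shock, 10.75, 10.77 and 10.74 after wounding, and 10.99, 10.89 and 10.87 after both. The heat shocked arrays were the highest, the doubly treated arrays came next, and wounding alone lay within control. It rose 1.30-fold after heat shock (log2 0.38 ± 0.06 SE, limma adjusted p = 0.0019) and 1.14-fold after both (0.19 ± 0.06, limma adjusted p = 0.0458). The call after both was lost under 12 of 21 alternatives, among them the removal of control replicate 1 or 2, heat shocked replicate 1 or 2, wounded replicate 1, 2 or 3, or heat shocked and wounded replicate 1 or 2, with adjusted p from 0.00533 to 0.281. SLC7A1, a carrier of arginine and lysine, read 9.12, 9.06 and 9.17 in control, 9.42, 9.41 and 9.65 after heat shock, 9.33, 9.37 and 9.36 after wounding, and 9.56, 9.41 and 9.50 after both. All treated arrays lay above control, and the rise was 1.30-fold after heat shock (log2 0.38 ± 0.07 SE, limma adjusted p = 0.00563) and 1.29-fold after both (0.37 ± 0.07, limma adjusted p = 0.00291); wounding gave 0.23 ± 0.07 (limma adjusted p = 0.142). Another of the 4 probe sets of SLC7A1, with a mean level of 7.75, passed after wounding (0.40, limma adjusted p = 0.0145 in the fit over all probe sets).

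The serine enzymes were highest on the arrays with heat shock alone. PSPH, the last enzyme of the pathway, read 9.61, 9.58 and 9.59 in control, 9.87, 9.87 and 9.81 after heat shock, 9.51, 9.50 and 9.52 after wounding, and 9.67, 9.52 and 9.63 after both. It rose 1.20-fold after heat shock (log2 0.26 ± 0.06 SE, limma adjusted p = 0.0122), a call lost with the mean of all probe sets, with replicates 1 and 2 averaged and without heat shocked replicate 1. PSAT1, the step before it, read 11.08, 11.13 and 11.29 in control, 11.37, 11.50 and 11.44 after heat shock, 11.10, 11.16 and 11.11 after wounding, and 11.18, 10.73 and 11.10 after both. All heat shocked arrays were above all others, with a difference from control of 0.27 ± 0.10 that did not pass (SE, limma adjusted p = 0.117). Of the other 7 probe sets of PSAT1, 2 passed after heat shock, at 0.34 and 0.31 (limma adjusted p = 0.0115 and 0.0291 in the fit over all probe sets). PHGDH, the first enzyme, gave 0.20 ± 0.07 after heat shock (limma adjusted p = 0.071) and 0.12 ± 0.07 after both (limma adjusted p = 0.258). MTHFD2 gave 0.17 ± 0.06 after heat shock (limma adjusted p = 0.0988), SLC3A2 0.20 (limma adjusted p = 0.173), SHMT2 -0.02 and SLC7A5, the partner of SLC3A2, 0.01.

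The doubly treated arrays and those with heat shock alone may differ in time since heat shock, which cannot be told apart from wounding here. On the doubly treated arrays PSAT1 was lower by 0.43 on the log2 scale (limma adjusted p = 0.0348), PSPH by 0.24 (limma adjusted p = 0.0377) and VLDLR by 0.72 (limma adjusted p = 0.00778). These 3 were the members that passed against heat shock alone. The count was 1 without control replicate 2, without heat shocked replicate 1, 2 or 3, without wounded replicate 1 or 2, or without heat shocked and wounded replicate 2, and in each case the gene that still passed was VLDLR. PSPH also lost its call without control replicate 1 or 3 or without heat shocked and wounded replicate 3. It was 0 when only the groups compared were fitted. ASNS gave -0.19 ± 0.06 and MTHFD2 -0.21 ± 0.06 in this comparison, with limma adjusted p of 0.13 and 0.0961. TRIB3 gave -0.18 ± 0.06 (SE, limma adjusted p = 0.155) and PPP1R15A 0.30 ± 0.10 (limma adjusted p = 0.142).

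The arms were set beside each other through the mean log2 difference of their genes from control on each array. The amino acid arm was at 0.20 ± 0.05 with heat shock, -0.04 ± 0.04 with wounding and 0.03 ± 0.07 with both (SD, n = 3). The ER chaperone arm was at 0.08 ± 0.04, -0.03 ± 0.02 and 0.08 ± 0.12 in the same order. The gap, ER chaperones minus amino acid genes, was -0.123, -0.114 and -0.135 on the heat shocked arrays and 0.029, 0.079 and -0.108 on the control arrays, so the groups did not overlap but control replicate 3 lay close to the heat shocked ones. On the wounded arrays the gap was 0.029, 0.054 and -0.057, and on the doubly treated arrays -0.018, 0.018 and 0.159. All arrays of the other 3 groups lay above the heat shocked ones, and the doubly treated arrays overlapped control and wounded arrays. The group means of both treatments and heat shock alone differed by 0.177. These gaps are a description and carry no test. The ER chaperone mean of the doubly treated arrays ranged from -0.028 on replicate 2, the array that stood apart, to 0.201 on replicate 3.

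**Figure D3:**
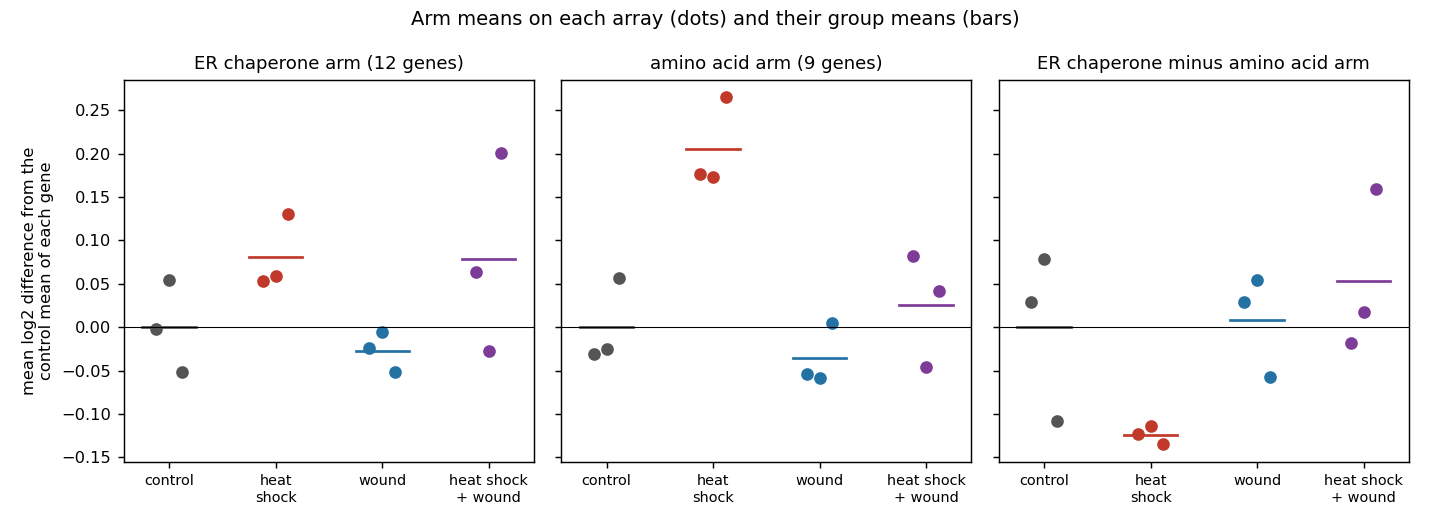
Mean log2 difference from control of the 12 ER chaperone genes, of the 9 amino acid genes, and of the first minus the second, on each array (dots) with the group mean (bar); the horizontal axis gives the group and the horizontal line marks the control mean. The 3 heat shocked arrays are highest in the amino acid panel (0.173 to 0.265) and lowest in the gap panel (-0.135 to -0.114).

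The heat shock difference was measured with and without wounding on arrays that are not shared between both comparisons. Of the 40 members 32 had the same sign in both (80%, against 67.4% of all genes). Across the 40 genes, which are not independent replicates and come from one fit, Pearson's r was 0.88 and Spearman's rho 0.78, and over all genes they were 0.77 and 0.58. HERPUD1, TRIB3, CEBPB and CEBPG rose in both and ATF5 and EDEM1 fell in both. Within the amino acid arm r was 0.53 over its 9 genes, and within the factors and feedback genes it was 0.94 over 10. No member passed the test of whether the heat shock difference changed with wounding, where 0.00552% of all genes did (limma), and 4 had an unadjusted p under 0.05 (10%, all genes 7.18%). VLDLR had the smallest p, with -0.54 ± 0.19 (SE, limma adjusted p = 0.608). PSAT1 gave -0.39 ± 0.15 (limma adjusted p = 0.625), SLC7A1 -0.24 ± 0.11 (limma adjusted p = 0.683) and ASNS -0.22 ± 0.09 (limma adjusted p = 0.635). A smaller or larger heat shock difference after wounding was therefore not shown for any member. For CEBPG the 95% interval of that change was -0.18 to 0.23, and for CEBPB -0.27 to 0.33.

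**Figure D4:**
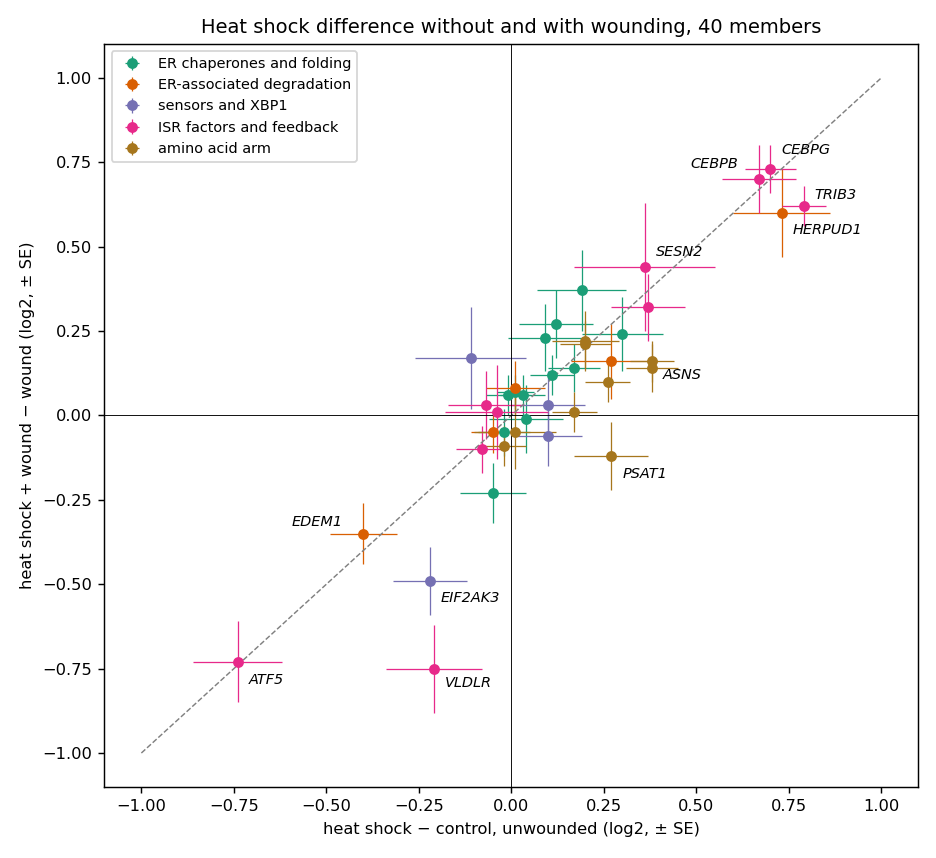
Log2 difference of heat shocked from control arrays (horizontal) against that of heat shocked and wounded from wounded arrays (vertical) for the 40 members, coloured by role, with SE bars and the line of equality. Most members lie near the line; VLDLR and PSAT1 lie under it, with interaction estimates of -0.54 and -0.39 that did not pass.

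Other genes of the pathways, which are not among the 40, were counted in 2 lists. Of 48 listed ER genes for translocation, folding, transport and degradation, 44 were measured. After heat shock 1 rose and 1 fell (4.55%, all genes 12.9%), after wounding none passed (2 at an unadjusted p under 0.05 in limma, or 4.55%, all genes 13.2%), and after both 2 rose and 9 fell (25%, near the 23.1% of all genes). DNAJC3, a co-chaperone that inhibits EIF2AK3, rose by 0.27 after heat shock and 0.40 after both on the log2 scale (limma adjusted p = 0.0468 and 0.00314). FKBP14, a prolyl isomerase for collagen, fell by 0.48 and 0.72 (limma adjusted p = 0.00228 and 4.96e-05). SELENOS rose by 0.21 after both. SEC24D, a coat protein of ER export vesicles, fell by 0.69 and WFS1 fell by 0.41 after both (limma adjusted p = 0.00117 and 0.0107). Against wounding, FKBP14, SEC24D and DNAJC10 passed, all lower, and against heat shock alone none did (3 at an unadjusted p under 0.05 in limma, or 6.82%, all genes 17.4%).

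Of 46 listed genes of the integrated stress response, 44 were measured, and 14 rose and 2 fell after heat shock (36.4%, all genes 12.9%, median 0.16). STC2, a secreted glycoprotein, rose 1.71-fold, EIF2AK2 (PKR), the eIF2 alpha kinase for double-stranded RNA, rose 1.52-fold, and SLC1A4, a carrier of serine and alanine, rose 1.5-fold (limma adjusted p = 8.72e-05, 4.46e-05 and 0.000308). SHMT1, the cytosolic relative of SHMT2, fell by 0.29 on the log2 scale and EIF2AK1, the heme-controlled kinase, fell by 0.18 (limma adjusted p = 0.00793 and 0.0486). After wounding ATF3, an immediate stress factor, rose 2.35-fold and the death receptor TNFRSF10B rose 1.42-fold (limma adjusted p = 0.000117 and 0.00274), and no other gene of the list passed. After both, 13 rose and 5 fell (40.9%, all genes 23.1%), led by ATF3 (2.05-fold), VEGFA, the vascular growth factor (1.87-fold), and BBC3 (PUMA), an inducer of apoptosis (1.77-fold). SLC7A11, the cystine carrier, fell by 0.64, MTHFD1L fell by 0.50 and SHMT1 fell by 0.44 (limma adjusted p = 0.000154, 0.000788 and 0.000241).

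Against wounding, 11 genes of that list rose and 4 fell (34.1%, all genes 14.9%), with VEGFA, EIF2AK2 and SLC1A4 the highest (0.59, 0.54 and 0.48 on the log2 scale) and MTHFD1L, SLC7A11 and SHMT1 the lowest (-0.67, -0.51 and -0.26). Against heat shock alone, ATF3, VEGFA and TNFRSF10B were higher (0.76, 0.70 and 0.38) and STC2 and SLC7A11 lower (-0.45 for each). The mean level of STC2 was 7.15 in control, 7.92 with heat shock, 7.05 with wounding and 7.47 with both.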

How the data were processed

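The values are log2 levels per probe set that the authors deposited, summarised by RMA (background correction, quantile scaling, summary of probes); the submitters' processing notes name Affymetrix Expression Console. Its version is not given in the sources used here. Dim probe sets are compressed by this method, and no detection calls were used. Of 49293 probe sets, 44988 carried 1 symbol in the platform annotation and 1 of them lacked a value and was dropped. A gene was read through its probe set of highest mean (18132 genes).

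In R 4.3.3, limma 3.58.1 (lmFit, contrasts.fit, eBayes) estimated the 4 group means from the 12 arrays, leaving 8 residual degrees of freedom, with Benjamini-Hochberg adjustment over all genes in each of 6 comparisons and a threshold of 0.05. The fit was tested on simulated data. The ± sign gives the SD of a level and the SE of a difference. Per-array values are given for 12 preset members and for the 5 largest called rises and falls in a comparison, and other genes are named where they are among the 3 largest of their list. The members and lists were chosen with earlier results of these data known. Precision is limited by the 3 arrays per group. Alternatives were 3 scalings, the mean of all probe sets, a filter on dim genes, fits of only the groups compared, a mean-dependent robust prior, a replicate block, replicates 1 and 2 averaged, and leaving out each array.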

Additional observations from a re-analysis of the deposited data

How the results depend on the processing

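The 33 calls of a member in a comparison were recomputed under 21 alternatives. All 33 kept their direction in each, and 22 also passed in each. The count after heat shock was 10, and 16 with a mean-dependent robust prior. After wounding it was 0, and 1 when only the groups compared were fitted and 3 with the robust prior. For both treatments against wounding it was 8, and 14 with the robust prior. Against heat shock alone it was 3, and 0 when only the groups compared were fitted, 7 with the robust prior, 1 with replicates 1 and 2 averaged, and 1 to 3 when 1 array was left out. In every other alternative the counts stayed within 1.5 times. The gap between the arms was recomputed with the scalings, the mean of all probe sets and each array left out. It moved by less than the replicate SD of 0.074 in each. That margin is larger than the gap after both treatments (0.05) and a large part of that after heat shock (-0.12). No array lay far enough from its group mean for its removal to exceed the margin, so leaving out an array could not fail this check. No scaling moved the median of all genes by over 0.1. Same-numbered arrays deviated together in 5 of 18 pairs (correlations over 0.1, range -0.19 to 0.23). Pairs of different number were not set beside them, so this cannot decide whether the shared codes pair the samples. The main fit took the samples as unpaired. With the replicate number as a block the counts were 10, 0, 11, 10, 3 and 0 in the 6 comparisons. With 3 arrays per group, small changes of dim probe sets such as ERN1 cannot be read.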

Other observations

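Genes of aminoacyl-tRNA synthetases, the enzymes that load amino acids onto tRNA and known ATF4 targets, were 10 of the 44 other integrated stress response genes measured. They were set apart after their values were seen, so their counts are a description. After heat shock all 10 had a positive difference from control, from 0.07 to 0.44 on the log2 scale with a median of 0.21 (all genes -0.03). The share of each sign over all genes was not counted. Of the 10, 6 passed (AARS1, CARS1, EPRS1, MARS1, SARS1 and YARS1), where 12.9% of all genes did. YARS1, the tyrosine enzyme, rose 1.36-fold and AARS1, the alanine enzyme, rose 1.32-fold (limma adjusted p = 0.0122 and 0.00327). After wounding the differences ran from -0.15 to 0.11 with a median of -0.02. After both the median was 0.13 (all genes -0.01), with CARS1, SARS1 and YARS1 passing against control, where 23.1% of all genes passed. Against heat shock alone 9 of 10 had a negative difference, from -0.21 to 0.02 over the list with a median of -0.12 (all genes 0.01). The synthetase medians stand beside those of the amino acid arm, 0.20, -0.07 and 0.02 in the 3 comparisons with control.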
